A study of Mus musculus with 12 samples.

Results

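Proteasome genes were followed in CD4+ T cells cultured toward the Th17 lineage, with the immunoproteasome set apart from the constitutive subunits. Members were all gene names that start with Psma, Psmb, Psmc, Psmd, Psme, Psmf or Psmg and a digit. The rule found 50 of the 23991 gene names in the files, and none of the 50 was listed more than once. The 48 members that reached 1 FPKM in 3 or more libraries could be tested. FPKM is a read count scaled by library size and transcript length, so that levels of different genes can be set side by side.

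The study profiled polyadenylated RNA in 4 groups of 3 libraries: Adcy10-/- cells with polarizing cytokines, WT cells with cytokines, Adcy10-/- cells in baseline medium and WT cells in baseline medium. Adcy10 encodes soluble adenylyl cyclase, an intracellular source of the second messenger cAMP. All mice were male C57BL/6 animals aged 8-10 weeks, and CD4+ cells of their spleens or lymph nodes were enriched by magnetic negative selection and were grown for 18 hours on anti-CD3 antibody with anti-CD28 antibody. Per the labels the cultures held IL-1β, IL-6, IL-23 and blocking antibodies to interferon-γ and IL-4, but these are not split between the media, so what baseline medium held is not known here. The labels do not say whether libraries came from separate mice, and p-values measure only the spread between these libraries.

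Adcy10 itself stood at 0 FPKM in each of the 12 libraries, WT ones included, and therefore gives no check of genotype. Libraries of a group correlated at 0.986 to 0.994 on the log scale. Read depth is unknown, and its size relative to the first WT baseline library, from the steps between low FPKM values, was 0.731 to 1.02. The 7 CD4 T cell markers summed to 1586 to 2001 FPKM per library, and 2 of them, Cd4 and Cd5, were called with cytokines, with values given beside the other markers. The 6 B cell markers summed to 1.88 to 7.54 FPKM in the 4 libraries numbered 1 and to 22.5 to 49.1 FPKM in the other 8. Calls of members and other listed genes that ended without the libraries numbered 1 are therefore named beside them. Leaving those libraries out also leaves fewer in each group, so a call can end while the change stays near its size. The marker calls of Cd4 and Cd5 were not followed under this or other alternatives.

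The proteasome is the protease that degrades ubiquitin-tagged proteins. Its 20S core is a barrel of alpha and beta rings, and the 19S regulatory particle on its ends unfolds substrates with a ring of ATPases. In the constitutive core the catalytic sites are on beta subunits encoded by Psmb5, Psmb6 and Psmb7. Interferon-γ induces Psmb8, Psmb9 and Psmb10, whose products take the places of those subunits in the immunoproteasome, and Psme1 and Psme2, which encode the PA28 activator cap. T and B cells hold much immunoproteasome even without interferon, and its cuts favour peptides that are loaded on MHC class I molecules.

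Promoter windows from RefSeq (build GRCm38.p6, 250 bases before to 50 after each start) were available for 42 of the 50 members, and 3 motifs were searched on both strands. The GAS motif TTCNNNGAA, known from promoters that respond to interferon-γ, lies in 8.3% of the 32817 mouse windows and in those of 3 members, Psmb8, Psmd2 and Psmg1. The interferon response element core TTTCNNTTT lies in 10.5% of all windows and in those of 6 members, one of them Psme1. The antioxidant response element TGACNNNGC, a site of the NRF1 and NRF2 factors that act on constitutive subunit genes, lies in 12.4% of all windows and in those of 6 members, Psmb5 and Psmb6 among them. No member window held overlapping matches of different motifs. The matches in the interferon-inducible genes and their constitutive counterparts are shown as 30 bases each, since these are the genes that the cytokine and ratio results turn on. The windows of Psmb9, Psmb10 and Psme2 held none of the 3 motifs, and no window was available for Psmb7. Capitals mark the motif.
Psmb8: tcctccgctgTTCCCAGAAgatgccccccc
Psme1: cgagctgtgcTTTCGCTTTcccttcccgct
Psmb5: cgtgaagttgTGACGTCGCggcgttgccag
Psmb6: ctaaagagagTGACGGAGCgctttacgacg

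The Psmb8 stretch is chr17:34198088-34198117 on the plus strand, and its GAS match starts 97 bases before the annotated start. The Psme1 stretch is chr14:55578493-55578522 on the plus strand, and its match starts at base 10 of the transcript. The Psmb5 stretch is chr14:54618023-54618052 on the minus strand, with the match 47 bases before the start, and the Psmb6 stretch is chr11:70525338-70525367 on the plus strand, with the match 9 bases before the start. These matches are letters only and say nothing of binding in these cells. Psmb9 and Tap1, which encodes a subunit of the peptide transporter, start 225 bases apart on opposite strands of chromosome 17, and their windows overlap by 275 bases.

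All 48 tested members lay above the median tested gene, which averaged 11.7 FPKM over the 12 libraries. Psme1 was the most abundant at a mean of 477 FPKM (range 403 to 541), followed by the alpha ring genes Psma2 at 384 FPKM (range 361 to 408) and Psma7 at 384 FPKM (range 338 to 414). The ranges of these last genes overlap almost wholly, so their order is not set. The alpha ring, which gates the core, ran down to Psma3 at 120.3 FPKM. The beta subunits without a catalytic site lay between Psmb1 at 233 FPKM and Psmb4 at 322 FPKM. The constitutive catalytic genes lay close together, from Psmb6 at 223 to Psmb7 at 234 FPKM, with overlapping ranges.

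The immunoproteasome catalytic genes did not stand at one level. Psmb8, whose product replaces that of Psmb5, averaged 339.9 FPKM (range 284 to 399), and all 12 libraries lay above every library of Psmb5 (219 to 263 FPKM). Psmb9, which replaces Psmb6, averaged 61.7 FPKM (range 50.7 to 75.8), and Psmb10, which replaces Psmb7, averaged 66.3 FPKM (range 57.9 to 74.7). Every library of both lay below every library of Psmb6 (211 to 247 FPKM) and Psmb7 (209.5 to 265 FPKM), while the ranges of Psmb9 and Psmb10 overlapped each other. Levels of RNA do not give the share of assembled immunoproteasome.

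The 6 ATPase genes of the 19S particle ranged in mean level between Psmc6 at 91.1 and Psmc5 at 198 FPKM, and its 11 other subunit genes between Psmd1 at 92.2 and Psmd8 at 173 FPKM. Assembly factors were lower. The 19S chaperone genes ran between Psmd9 at 15.7 and Psmd5 at 29.4 FPKM, and the 20S chaperone genes between Psmg3 at 50.2 and Psmg4 at 86.5 FPKM. Of the other caps, Psme3, which encodes the nuclear activator PA28γ, averaged 175 FPKM, and Psme4, which encodes the large activator PA200, averaged 12.4 FPKM. Psmf1, which encodes the inhibitor PI31, averaged 17.9 FPKM. Psma8, the testis form of an alpha subunit, averaged 0.0770 FPKM, and Psmb11, the thymus form of a catalytic subunit, was listed at 0 in all 12 libraries. Both fell below the filter. Psme2b, at 82.8 FPKM, is a near-identical copy of Psme2, and reads may be split between them, so the values of both are uncertain. Psmc3ip, at 20.0 FPKM, matches the name rule but encodes a meiotic recombination factor.

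**Figure D1:**
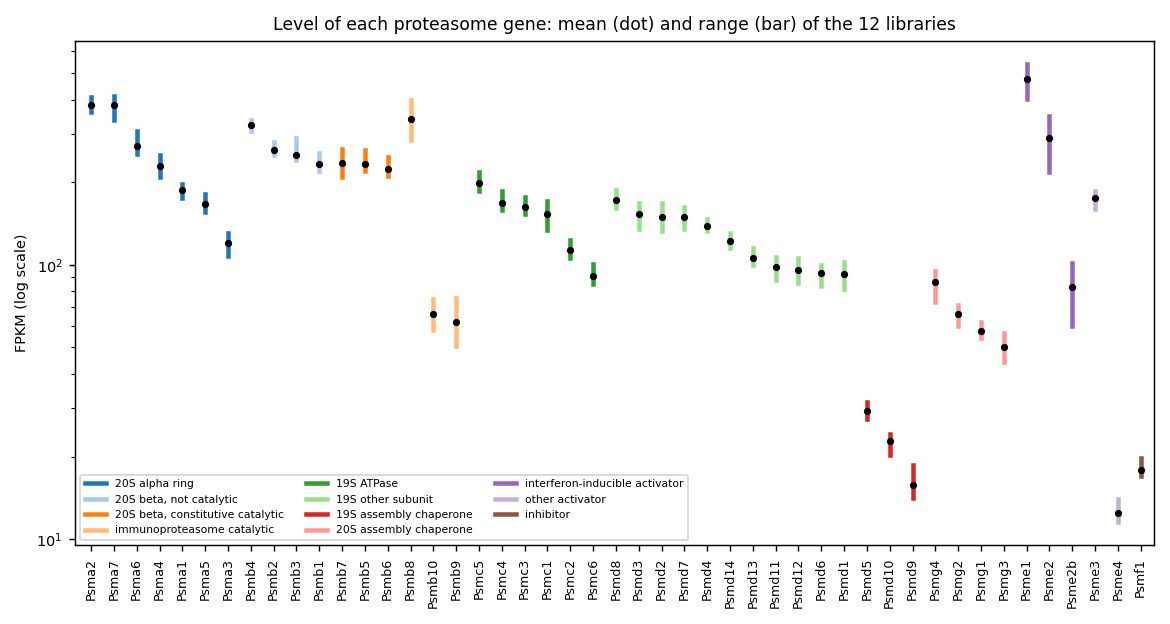
Mean FPKM (dot) and range over the 12 libraries (bar) of the 47 tested proteasome genes, on a log axis and coloured by role, without Psmc3ip. Psme1 stands highest at 477 FPKM, Psmb9 and Psmb10 stand apart below the other catalytic genes, and Psme4 is lowest at 12.4 FPKM.

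Over the 12 libraries the interferon-inducible genes spanned wider ranges than most other members. The ratio of the highest to the lowest library ran from 1.29 for Psmb10 to 1.60 for Psme2 among the 5 inducible genes. Psme2b had 1.70 and Psmc3ip 1.35. Among the other 41 tested members it ran from 1.10 for Psmb4 to 1.32 for Psmd9, with a median of 1.19, so the ranges of these sets overlap.

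With polarizing cytokines, genes of the immunoproteasome and PA28 fell in both genotypes, and no proteasome gene passed the test as higher. In Adcy10-/- cells 6 of the 48 tested members fell and 0 rose, namely Psmb8, Psmb9, Psmb10, Psme1, Psme2 and Psme2b (limma, adjusted p under 0.05 over all 10126 tested genes). Of all tested genes 4.27% were called in this comparison, 2.12% as lower and 2.14% as higher. In WT cells 5 of 48 fell and 0 rose, the same genes without Psmb10, where 4.93% of all tested genes were called, 2.28% as lower and 2.65% as higher. The median change of the 5 interferon-inducible genes in log2(FPKM + 1) was -0.40 in Adcy10-/- and -0.28 in WT cells, against -0.02 and -0.01 over all tested genes. With the replicate block, which compares libraries of the same number, the counts of members were the same, 6 and 5, while 10.7% of all tested genes were called in Adcy10-/- cells (5.98% as lower) and 14.8% in WT cells (7.43% as lower). Without the libraries numbered 1 the counts were 5 in Adcy10-/- and 4 in WT cells. In these bulk samples, fewer cells of a type and less RNA per cell cannot be told apart.

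Among the catalytic subunits, Psmb8 had 286, 295 and 303 FPKM in the 3 Adcy10-/- libraries with cytokines, against 380.2, 390.3 and 399 FPKM in the 3 at baseline. Every library with cytokines lay below every baseline library. Its WT values were 284, 314 and 316 FPKM with cytokines, against 355, 366 and 390.1 FPKM at baseline. Here too the groups did not overlap. The change in log2(FPKM + 1) was -0.40 in Adcy10-/- cells (SE 0.05, adjusted p = 0.00174) and -0.28 in WT cells (SE 0.05, adjusted p = 0.0124), in limma. On the scale with the added 1, these are 0.756 and 0.823 times the baseline level.

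Psmb9 had 51.2, 58.1 and 55.5 FPKM in the 3 Adcy10-/- libraries with cytokines, against 75.8, 71.7 and 71.5 FPKM in the 3 at baseline. In WT cells it had 50.7, 52.3 and 54.0 FPKM with cytokines, against 66.0, 66.1 and 67.4 FPKM at baseline. The groups did not overlap in either genotype. The change in log2(FPKM + 1) was -0.41 in Adcy10-/- cells (SE 0.05, adjusted p = 0.00156) and -0.34 in WT cells (SE 0.05, adjusted p = 0.00435), in limma. Psmb9 was the one member whose call in WT cells held under all 22 alternative settings, with adjusted p up to 0.0247.

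Psmb10 had 61.9, 57.9 and 61.2 FPKM in the 3 Adcy10-/- libraries with cytokines, against 74.7, 67.3 and 70.9 FPKM in the 3 at baseline. These did not overlap. The WT libraries gave 63.2, 68.2 and 63.8 FPKM with cytokines, against 68.1, 66.3 and 72.2 FPKM at baseline. In WT cells the groups overlapped, since one library with cytokines lay above the second baseline library. The change in log2(FPKM + 1) was -0.23 in Adcy10-/- cells (SE 0.06, adjusted p = 0.0401) and -0.08 in WT cells (SE 0.06, adjusted p = 0.493), in limma. The limma call in Adcy10-/- cells was the least firm of the 6: it was lost under 13 of 22 alternatives. Among these were leaving out the libraries numbered 1 (change -0.21, adjusted p = 0.188) and median-ratio scaling (change -0.21, adjusted p = 0.0686). In limma, leaving out one library at a time ended it for Adcy10-/- baseline number 1 (adjusted p = 0.168) and number 3 (0.126), each of the 3 Adcy10-/- libraries with cytokines (0.0877, 0.131 and 0.0929), WT baseline number 2 (0.0525) and WT with cytokines number 3 (0.0575).

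The PA28 activator genes moved the same way. Psme1 had 403, 429 and 431 FPKM in the 3 Adcy10-/- libraries with cytokines, against 541, 529 and 515 FPKM in the 3 at baseline. WT libraries held 414, 474 and 438 FPKM with cytokines, against 520.1, 519.7 and 511 FPKM at baseline. Libraries with cytokines lay below those at baseline in both genotypes. The change in log2(FPKM + 1) was -0.33 in Adcy10-/- cells (SE 0.05, adjusted p = 0.00535) and -0.23 in WT cells (SE 0.05, adjusted p = 0.0313), in limma.

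Psme2 had 226, 239 and 250.4 FPKM in the 3 Adcy10-/- libraries with cytokines, against 339, 338 and 349 FPKM in the 3 at baseline. In WT cells it had 217, 272 and 269 FPKM with cytokines, against 298, 335 and 347 FPKM at baseline. The groups did not overlap in either genotype, and in both WT groups library number 1 was the lowest. The change in log2(FPKM + 1) was -0.52 in Adcy10-/- cells (SE 0.08, adjusted p = 0.00602) and -0.37 in WT cells (SE 0.08, adjusted p = 0.0289), in limma. Its copy Psme2b averaged 67.1 ± 4.98 FPKM with cytokines and 98.8 ± 2.54 FPKM at baseline in Adcy10-/- cells (SD, n = 3 each). In WT cells it averaged 70.6 ± 9.42 and 94.7 ± 7.07 FPKM (SD, n = 3 each). Its changes were -0.55 (adjusted p = 0.00671, limma) and -0.43 (adjusted p = 0.0238, limma), close to those of Psme2, with which it may share reads.

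**Figure D2:**
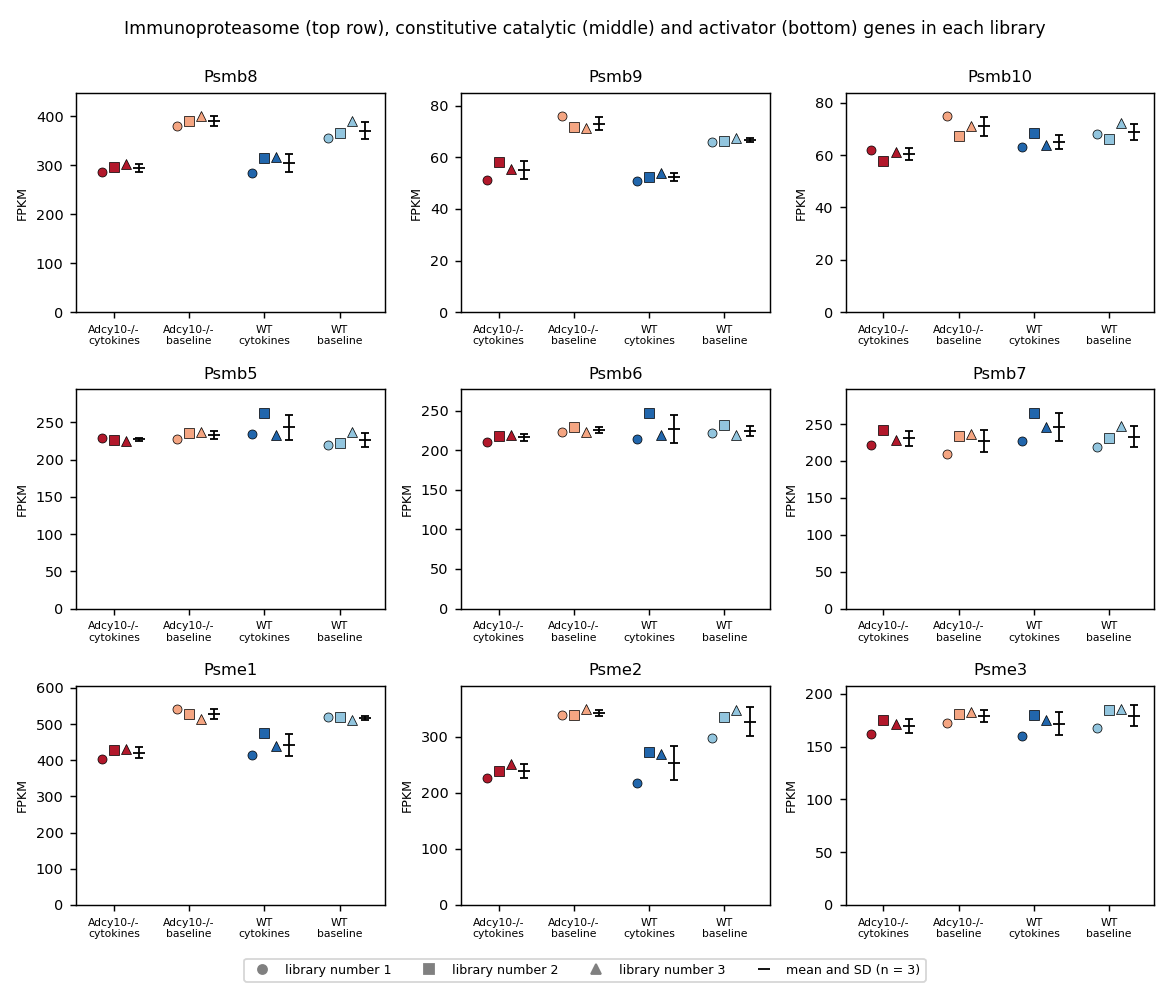
FPKM of 9 proteasome genes in each of the 12 libraries, with axes from 0, symbols for the library number and bars for mean and SD (n = 3). Psmb8, Psmb9, Psme1 and Psme2 lie lower with cytokines than at baseline in both genotypes without overlap. Psmb10 and Psmb6 do so in Adcy10-/- cells only, and Psmb5, Psmb7 and Psme3 overlap in both.

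In the fit without the replicate block, the only one where libraries were left out, the count in WT cells fell without certain single libraries. It was 1 without WT baseline number 2, 2 without WT baseline number 3 and 2 without WT with cytokines number 1, and it was 1 when only the 6 WT libraries were fitted and 2 with no filter on low values. The count in Adcy10-/- cells was 5 or 6 under every alternative.

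By gene, the WT call (limma, adjusted p without the library in parentheses) ended without WT baseline number 2 (0.0531) for Psmb8. For Psme1 it ended without WT baseline number 1 (0.0757), WT baseline number 2 (0.124), WT baseline number 3 (0.0557), WT with cytokines number 1 (0.108) and WT with cytokines number 3 (0.0807). For Psme2 it ended without WT baseline number 2 (0.126), WT baseline number 3 (0.0803) and WT with cytokines number 1 (0.0694), and for Psme2b without WT baseline number 2 (0.106), WT baseline number 3 (0.0666) and WT with cytokines number 1 (0.0609). Without all libraries numbered 1 the limma call of Psme1 in WT cells ended (change -0.18, adjusted p = 0.131). It also ended with median-ratio scaling (0.0567), no variance trend (0.0539), no filter (0.0536) and only the 6 WT libraries (0.129). Of 22 alternatives, 10 ended the WT call of Psme1, 5 that of Psme2, 5 that of Psme2b and 2 that of Psmb8. With 1 library left out at a time, the WT changes ran from -0.31 to -0.23 for Psmb8 and from -0.28 to -0.18 for Psme1. They ran from -0.44 to -0.27 for Psme2 and from -0.50 to -0.31 for Psme2b. Fewer libraries also give a weaker test, so a lost call alone does not show a smaller change.

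None of the 3 constitutive catalytic genes passed the test, but the groups of Psmb6 in Adcy10-/- cells did not overlap. There Psmb6 had 211, 218 and 219 FPKM with cytokines, against 223.3, 229 and 223.5 FPKM at baseline. Psmb5 averaged 227 ± 2.22 FPKM with cytokines and 233 ± 5.42 FPKM at baseline in Adcy10-/- cells, and 244 ± 16.6 and 226 ± 9.46 FPKM in WT cells (SD, n = 3 each). Psmb6 averaged 216 ± 4.71 FPKM with cytokines and 225 ± 3.48 FPKM at baseline in Adcy10-/- cells, and 227 ± 17.7 and 224 ± 6.62 FPKM in WT cells (SD, n = 3 each). Psmb7 averaged 231 ± 10.2 FPKM with cytokines and 227 ± 14.8 FPKM at baseline in Adcy10-/- cells, and 246 ± 18.9 and 233 ± 14.0 FPKM in WT cells (SD, n = 3 each). Their changes were -0.04, -0.06 and 0.03 in Adcy10-/- cells and 0.11, 0.01 and 0.08 in WT cells, with adjusted p (limma) between 0.312 and 0.937. The sign for Psmb6 in WT cells turned to -0.01 under quantile normalization. The 95% intervals in Adcy10-/- cells were -0.16 to 0.08 for Psmb5, -0.18 to 0.06 for Psmb6 and -0.13 to 0.18 for Psmb7.

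Psme3 averaged 169.6 ± 6.54 FPKM with cytokines and 179 ± 5.66 FPKM at baseline in Adcy10-/- cells, and 172 ± 10.7 and 179 ± 9.98 FPKM in WT cells (SD, n = 3 each). Psme4 averaged 12.4 ± 0.682 and 11.9 ± 0.525 FPKM in Adcy10-/- cells, and 12.4 ± 0.749 and 12.9 ± 0.960 FPKM in WT cells. These activators, which interferon is not known to induce, gave adjusted p (limma) of 0.657 and 0.834 in Adcy10-/- and 0.644 and 0.756 in WT cells.

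Of the 41 tested members besides the inducible genes, Psme2b and Psmc3ip, 0 were called in either genotype by limma, and 0 had an unadjusted p under 0.05. Their median change was -0.002 in Adcy10-/- cells, with a range between -0.12 (Psma7) and 0.11 (Psmd12, a 19S subunit). In WT cells the median was 0.05, with a range between -0.07 (Psma7) and 0.13 (Psmd3, a 19S subunit), and 31 of 41 lay above 0, where 54.1% of all tested genes lay below 0. All 6 ATPase genes and 10 of the 11 other 19S subunit genes were above 0 in WT cells, though none passed. The lean rested in part on single libraries: without WT with cytokines number 2, 22 of 41 lay above 0, with a median of 0.02, and without WT baseline number 1, 27 of 41, with a median of 0.01. Without WT with cytokines number 1 it was 36 of 41, with a median of 0.095.

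Groups of 3 against 3 did not overlap for 10 of 48 members as lower and 2 as higher with cytokines in Adcy10-/- cells, where 12.3% and 9.28% of all tested genes did so. In WT cells it was 6 as lower and 0 as higher, against 10.3% and 10.5% of all tested genes.

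**Figure D3:**
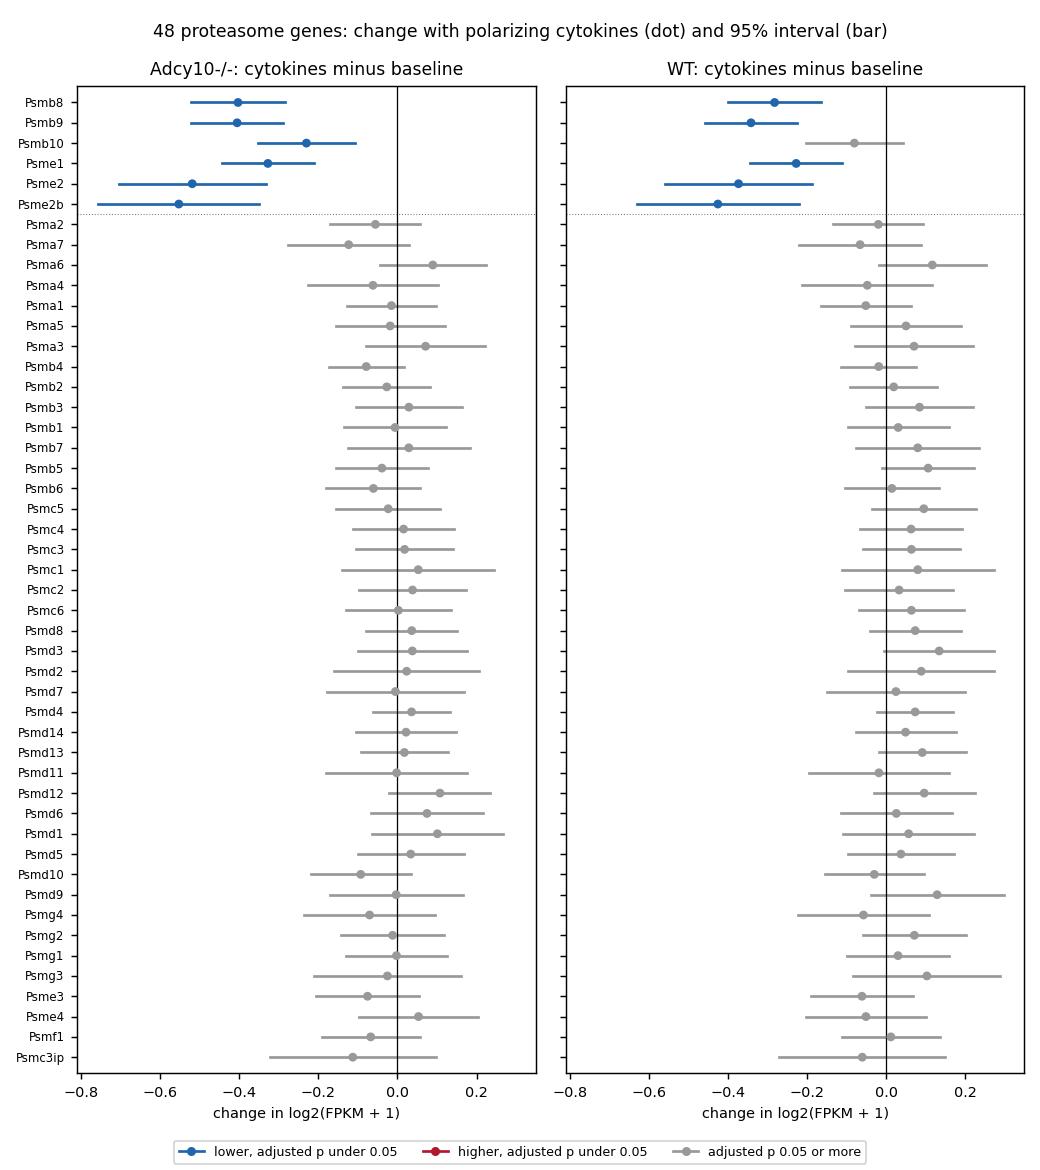
Change in log2(FPKM + 1) with cytokines (dot) and its 95% interval (bar) for the 48 tested members in Adcy10-/- (left) and WT cells (right); colour marks adjusted p under 0.05. The interferon-inducible genes and Psme2b, above the dotted line, lie to the left, and the other 42 members lie around 0 with intervals that reach or cross it.

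Psmb8, Psmb9 and Psmb10 were then each set against the constitutive counterpart within the same library, which removes differences in scale between libraries. Psme1 and Psme2 were set against Psme3, another activator and not a subunit that they replace. Labels were exchanged within genotype or within medium in an exact two-sided permutation test with 400 arrangements, where 0.005 is the smallest p, and p-values were adjusted over 10 tests. The ratio of Psmb8 to Psmb5 was 1.25, 1.30 and 1.35 in Adcy10-/- libraries with cytokines, against 1.67, 1.66 and 1.68 at baseline. In WT libraries it was 1.21, 1.19 and 1.36 with cytokines, against 1.62, 1.65 and 1.65 at baseline. Psmb8 RNA thus stayed above Psmb5 RNA in every library, by a smaller margin with cytokines.

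The mean ratio with cytokines and at baseline for Psmb9 to Psmb6 was 0.254 and 0.324 in Adcy10-/- and 0.231 and 0.297 in WT libraries. For Psmb10 to Psmb7 it was 0.262 and 0.315 in Adcy10-/- and 0.265 and 0.296 in WT libraries. Against Psme3, Psme1 gave 2.48 and 2.96 in Adcy10-/- and 2.58 and 2.89 in WT libraries, and Psme2 gave 1.41 and 1.91 in Adcy10-/- and 1.47 and 1.82 in WT libraries. All 5 ratios were lower with cytokines in both genotypes, with no overlap between groups. The mean log2 differences, cytokines minus baseline, were -0.38 for Psmb8/Psmb5, -0.36 for Psmb9/Psmb6, -0.21 for Psmb10/Psmb7, -0.21 for Psme1/Psme3 and -0.38 for Psme2/Psme3. Each had p = 0.005 and adjusted p = 0.01 in the exact permutation test. Exchanging labels only within pairs of libraries with the same number allows no p below 0.0312, and each ratio reached it with 6 of 6 pairs lower, at an adjusted p of 0.0521, which misses the threshold of 0.05. Psmb10 relative to Psmb7 was thus among the ratios that fell, over both genotypes, although Psmb10 itself did not pass in WT cells. There Psmb10 changed by -0.08 and Psmb7 by 0.08 in log2(FPKM + 1), neither called. The lower WT ratio therefore does not show that Psmb10 fell in WT cells.

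**Figure D4:**
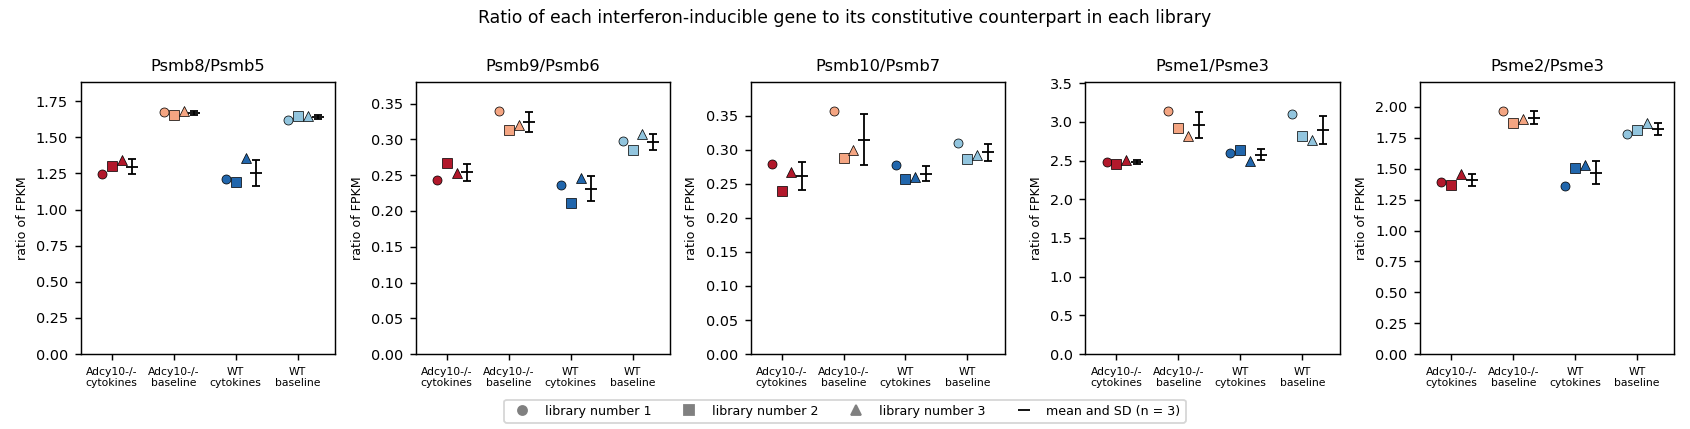
Ratio of FPKM of Psmb8, Psmb9 and Psmb10 to their constitutive counterparts, and of Psme1 and Psme2 to Psme3, in each library. Axes start at 0, symbols give the library number and bars the mean and SD (n = 3). In all 5 panels the libraries with cytokines lie below the baseline libraries of the same genotype.

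Loss of Adcy10 was not accompanied by a called change in any proteasome gene. With cytokines 0 of 48 members were called (limma), as were 0% of all tested genes, and 0 members had an unadjusted p under 0.05. At baseline 0 members and 0% of genes were called, and 1 member, Psmb9, had an unadjusted p under 0.05. In these comparisons 202 and 118 of the 10126 genes had an unadjusted p under 0.05. This fit leaves the pairing by library number out, and with the replicate block 0 members and 0% of genes were called in either comparison. Psmb9 differed at baseline by 0.13 (95% interval 0.02 to 0.25, adjusted p = 1, limma) and with cytokines by 0.07 (95% interval -0.05 to 0.18, adjusted p = 1, limma). The baseline libraries, 75.8, 71.7 and 71.5 FPKM in Adcy10-/- against 66.0, 66.1 and 67.4 FPKM in WT cells, did not overlap. Baseline groups did not overlap for 2 of 48 members as higher and 0 as lower in Adcy10-/- cells (2.57% and 2.42% of all tested genes), and groups with cytokines for 0 as higher and 3 as lower (1.68% and 3.4%).

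For the other inducible genes the baseline differences, Adcy10-/- minus WT, were 0.07 for Psmb8 (95% interval -0.04 to 0.19), 0.04 for Psmb10 (-0.08 to 0.16), 0.03 for Psme1 (-0.09 to 0.15) and 0.07 for Psme2 (-0.12 to 0.25). With cytokines they were -0.05 (-0.16 to 0.07), -0.11 (-0.23 to 0.02), -0.07 (-0.19 to 0.05) and -0.08 (-0.26 to 0.11). All these intervals include 0, and a difference of the size of their bounds is not shown to be absent. Other members with the smallest limma p were Psme4 at baseline (-0.11, 95% interval -0.26 to 0.05) and Psmf1 at baseline (0.09, 95% interval -0.03 to 0.22), both with an adjusted p of 1 in limma. With cytokines they were Psmb5 (-0.10, 95% interval -0.21 to 0.02), the 19S subunit Psmd13 (-0.09, 95% interval -0.20 to 0.02) and the 20S chaperone Psmg2 (-0.11, 95% interval -0.24 to 0.03), each at an adjusted p of 1 in limma.

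With cytokines 44 of 48 members lay below 0 in Adcy10-/- minus WT, with a median of -0.04, while 57% of all tested genes lay below 0, with a median of -0.01. At baseline 22 of 48 lay below 0, with a median of 0.0023. The lean with cytokines changed with the library left out. WT with cytokines number 2 held the highest value of the 12 libraries for 27 of 48 members, against 10.8% of all tested genes. Without it 27 of 48 members lay below 0, with a median of -0.0041, and 60.9% of all tested genes. Without Adcy10-/- with cytokines number 1, 35 of 48 lay below 0, with a median of -0.025, and 53.9% of all tested genes. Without WT with cytokines number 1, 46 of 48 did, with a median of -0.093, and 57.2% of all tested genes.

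Averaged over media, 0 members and 0% of genes were called by limma, 180 genes had an unadjusted p under 0.05, and Psmb9 was the 1 member among them (0.10, 95% interval 0.02 to 0.18, adjusted p = 1). Set against Psmb6 within libraries, the Psmb9 ratio was 0.243, 0.266 and 0.253 in Adcy10-/- against 0.237, 0.211 and 0.246 in WT libraries with cytokines. At baseline it was 0.340, 0.313 and 0.320 in Adcy10-/- against 0.297, 0.285 and 0.308 in WT libraries. The groups overlapped with cytokines and did not at baseline. The mean log2 difference was 0.13 (exact permutation p = 0.01, adjusted p = 0.0167), and 6 of 6 pairs of the same number were higher in Adcy10-/- (exact p = 0.0312 within pairs, adjusted p = 0.0521). The other 4 ratios gave mean log2 differences between -0.01 and 0.04, with adjusted p between 0.3 and 0.865 in the same exact test. With cytokines Psmb6 itself averaged 216 FPKM in Adcy10-/- and 227 FPKM in WT libraries, of which number 2 had 247 FPKM. At baseline it averaged 225 and 224 FPKM. Part of the Psmb9/Psmb6 difference with cytokines thus lay in Psmb6. The ratio alone therefore does not show that Psmb9 differed between genotypes.

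The cytokine effect itself did not differ between genotypes by a called amount: 0 members and 0% of genes passed for the interaction in limma, with 0 members and 112 genes at an unadjusted p under 0.05. The difference of the cytokine effects, Adcy10-/- less WT, was -0.12 for Psmb8 (95% interval -0.29 to 0.05), -0.06 for Psmb9 (-0.23 to 0.10), -0.15 for Psmb10 (-0.32 to 0.02), -0.10 for Psme1 (-0.26 to 0.06) and -0.15 for Psme2 (-0.41 to 0.12). All 5 estimates were below 0, as were 40 of 48 members and 54.2% of all tested genes. Without WT with cytokines number 2 it was 28 of 48 members and 57.8% of all tested genes, and the median over members was -0.0066, against -0.05 with all libraries. Without WT baseline number 1 it was 32 of 48 members, with a median of -0.018. Without WT with cytokines number 1 it was 47 of 48, with a median of -0.090. The call of Psmb10 in Adcy10-/- cells alone is therefore no shown difference between genotypes.

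Some genes of MHC class I antigen processing fell with cytokines as well. Of 12 genes of MHC class I antigen processing, 6 fell with cytokines in Adcy10-/- cells (B2m, H2-K1, Nlrc5, Tap1, Tap2 and Tapbp) and 4 in WT cells (B2m, Nlrc5, Tap1 and Tap2), and 0 rose in either, where 2.12% and 2.28% of all tested genes were called as lower. Calreticulin gene Calr, a chaperone of peptide loading, lay above 0 in both (0.09 and 0.12). The median change over the 12 was -0.23 in Adcy10-/- and -0.18 in WT cells. Tap1, a subunit of the transporter that brings peptides into the endoplasmic reticulum, had 74.1, 79.0 and 80.9 FPKM with cytokines, against 102, 109 and 104 FPKM at baseline in Adcy10-/- cells. In WT cells Tap1 had 73.9, 75.3 and 84.6 FPKM with cytokines, against 91.5, 100.5 and 102 FPKM at baseline, again without overlap. Its changes of -0.43 (adjusted p = 0.0037) and -0.33 (adjusted p = 0.0136) in limma stand beside -0.41 and -0.34 for its neighbour Psmb9.

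Nlrc5, the transactivator of MHC class I genes, changed by -0.49 and -0.53 in Adcy10-/- and WT cells (adjusted p = 0.0143 and 0.00927, limma). Tap2, the other transporter subunit, changed by -0.29 and -0.21 (adjusted p = 0.00425 and 0.0229, limma). B2m, the light chain of MHC class I, averaged 1909 ± 73.0 FPKM with cytokines and 2232 ± 101 FPKM at baseline in Adcy10-/- cells (SD, n = 3 each; change -0.23, adjusted p = 0.0274, limma), and 1906 ± 30.2 and 2189 ± 90.7 FPKM in WT cells (change -0.20, adjusted p = 0.0454). The peptide-loading gene Tapbp and the heavy chain gene H2-K1 passed in Adcy10-/- cells (-0.40 and -0.28, adjusted p = 0.00948 and 0.00659) and not in WT cells (-0.28 and -0.15, adjusted p = 0.0523 and 0.0901, limma). In limma with the replicate block both passed in WT cells too (adjusted p = 0.00747 and 0.034), and the heavy chain gene H2-D1 passed in Adcy10-/- cells (-0.18, adjusted p = 0.0572 without and 0.0109 with the block). The B2m call was lost under 9 of 22 alternatives in Adcy10-/- and 14 of 22 in WT cells. In limma the WT calls ended without WT baseline number 2 (0.0724), WT with cytokines number 1 (0.0556) and WT with cytokines number 2 (0.052) for Tap1, WT baseline number 2 (0.104), WT baseline number 3 (0.0595), WT with cytokines number 1 (0.081) and WT with cytokines number 2 (0.0733) for Tap2 and WT baseline number 2 (0.0531) for Nlrc5. In Adcy10-/- cells the limma call of Nlrc5 ended without Adcy10-/- baseline number 3 (0.065), Adcy10-/- with cytokines number 1 (0.0676) and Adcy10-/- with cytokines number 2 (0.0556). Without all libraries numbered 1, limma lost the calls of Nlrc5 (-0.49, adjusted p = 0.0788), H2-K1 (-0.25, adjusted p = 0.0704) and B2m (-0.20, adjusted p = 0.161) in Adcy10-/- cells. In WT cells it lost those of Tap2 (-0.21, adjusted p = 0.0918) and B2m (-0.18, adjusted p = 0.149).

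Of 13 genes of interferon signalling, 1 fell and 1 rose in each genotype, where 2.12% of all tested genes were called as lower and 2.14% as higher in Adcy10-/- cells and 2.28% and 2.65% in WT cells. The median change over the 13 was -0.07 in Adcy10-/- and -0.04 in WT cells. Groups did not overlap for 3 as lower and 2 as higher in Adcy10-/- cells, against 12.3% and 9.28% of all tested genes. In WT cells it was 2 and 2, against 10.3% and 10.5%. Irf8 was not called but was lower without overlap in both, at 59.8 to 93.8 against 96.4 to 158 FPKM in Adcy10-/- cells. In WT cells Irf8 had 63.7 to 85.2 against 87.1 to 163 FPKM. Irf1, an interferon-induced factor that acts on Psmb9 and Tap1, had 98.7, 104 and 105 FPKM with cytokines, against 163, 148 and 146 FPKM at baseline in Adcy10-/- cells. In WT cells Irf1 had 95.3, 100.3 and 107 FPKM with cytokines, against 131, 146 and 131 FPKM at baseline. It fell without overlap in both, by 0.57 in Adcy10-/- (adjusted p = 0.000662) and by 0.43 in WT cells (adjusted p = 0.00383) on the log2 scale in limma. Jak2, a kinase of the interferon-γ receptor and of other cytokine receptors, rose by 0.60 and 0.60 (adjusted p = 0.0149 and 0.0136, limma). In limma the Jak2 call ended in Adcy10-/- cells without Adcy10-/- baseline number 1 (0.0683), Adcy10-/- baseline number 3 (0.0584), Adcy10-/- with cytokines number 2 (0.0509) and Adcy10-/- with cytokines number 3 (0.055), and in WT cells without WT baseline number 2 (0.0662) and WT with cytokines number 1 (0.0551). It also ended in both without all libraries numbered 1 (0.56, adjusted p = 0.108 in Adcy10-/- and 0.58, adjusted p = 0.0659 in WT cells, limma).

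Ifng, which encodes interferon-γ itself, had 21.8, 61.8 and 35.4 FPKM with cytokines and 33.1, 122 and 77.7 FPKM at baseline in Adcy10-/- cells, and 23.3, 49.5 and 31.6 and 24.0, 113 and 75.0 FPKM in WT cells. The groups overlapped, the libraries numbered 1 were the lowest of every group, and the changes of -0.89 and -0.81 had adjusted p of 0.579 and 0.517 in limma without the replicate block, and 0.0142 and 0.0188 with it. Ifng and Irf8 were named after their values were seen. The receptor gene Ifngr2 passed in limma in WT cells with the block and without WT baseline number 1 (adjusted p = 0.0388), and not with all libraries and no block (0.23, adjusted p = 0.114 without and 0.0317 with it; 0.11 and 0.314 with it in Adcy10-/- cells). No test compared these lists with the proteasome genes, and whether interferon signalling had a part in the lower immunoproteasome RNA was not tested.

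**Figure D5:**
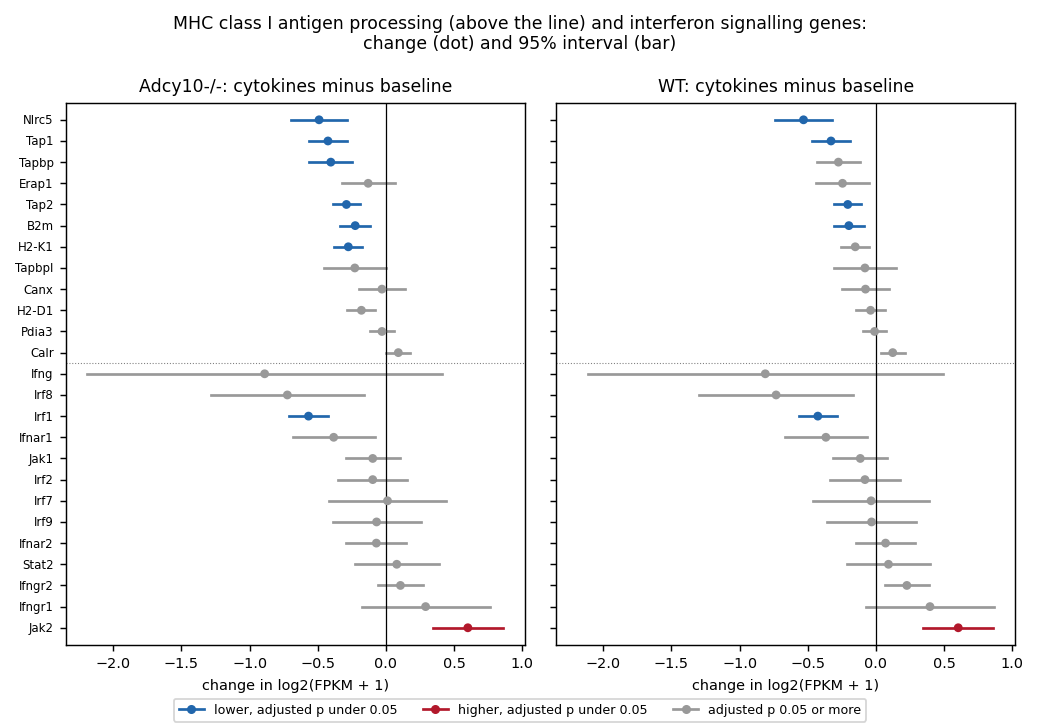
Change in log2(FPKM + 1) with cytokines (dot) and its 95% interval (bar) for 12 MHC class I antigen processing genes (above the dotted line) and 13 interferon signalling genes in Adcy10-/- (left) and WT cells (right). Nlrc5, Tap1, Tap2, B2m and Irf1 are coloured as lower and Jak2 as higher in both.

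Of 27 listed partners and regulators of the proteasome found in the files, 1 rose and 0 fell in each genotype, a count near the 2.14% and 2.65% of all tested genes called as higher in Adcy10-/- and WT cells. Uba1, the main ubiquitin-activating enzyme, had 233, 233 and 239 FPKM with cytokines, against 146, 167 and 166 FPKM at baseline in Adcy10-/- cells. In WT cells it had 217, 237 and 242 FPKM with cytokines, against 142, 151 and 175 FPKM at baseline. The rises of 0.56 (adjusted p = 0.00236) and 0.57 (adjusted p = 0.00223) in limma held under all 22 alternatives in both genotypes. Shfm1, which encodes a small 19S subunit, passed in WT cells in limma only with the replicate block (0.15, adjusted p = 0.174 without and 0.0295 with it; in Adcy10-/- cells 0.06 and 0.404 with it). The median change over the 27 was -0.03 in Adcy10-/- and 0.0051 in WT cells.

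None of the 52 tested genes of these lists was called between genotypes in either medium. The genes with the smallest limma p at baseline were Irf1 (0.17, 95% interval 0.03 to 0.31), Tap2 (0.11, 95% interval 0.0091 to 0.20) and Tapbp (0.15, 95% interval -0.01 to 0.31), and with cytokines Shfm1 (-0.11, 95% interval -0.24 to 0.01) and Ifngr2 (-0.15, 95% interval -0.31 to 0.01), all at an adjusted p of 1 in limma.

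Markers of other cell types were set beside the result. The 6 B cell markers summed to 5.08 to 26.8 FPKM with cytokines and 7.54 to 30.3 FPKM at baseline in Adcy10-/- cells, and 2.54 to 36.2 and 1.88 to 49.1 FPKM in WT cells, and 0 of them were called with cytokines. The 5 macrophage markers found in the files summed to 20.9 to 27.0 FPKM with cytokines and 14.8 to 19.7 FPKM at baseline in Adcy10-/- cells, and 28.1 to 101 and 19.6 to 64.8 FPKM in WT cells, with 0 of the 2 tested called. Dendritic cell markers summed to at most 2.54 FPKM and NK cell markers to at most 0.256 FPKM in any library, and CD8 T cell markers to 8.43 to 14.7 FPKM. Most of the CD8 sum was Cd8b1, at 7.49 to 12.2 FPKM. Cd8a, like the B cell markers, was lower in the libraries numbered 1 (0.0673 to 0.225 FPKM) than in the others (0.933 to 2.52 FPKM). Neutrophil markers summed to 0.447 to 15.3 FPKM with cytokines and 0.470 to 5.14 FPKM at baseline in Adcy10-/- cells, and 10.1 to 59.6 and 2.45 to 18.5 FPKM in WT cells, and red cell markers to 0.809 to 126 FPKM with cytokines and 0.928 to 193 FPKM at baseline in Adcy10-/- cells, and 1.32 to 25.9 and 2.03 to 18.7 FPKM in WT cells. No list had a marker at 0 in all libraries among those found in the files. Of the 7 CD4 T cell markers, Cd5, a surface regulator of T cell receptor signals, averaged 328 ± 8.14 FPKM with cytokines and 260.1 ± 20.9 FPKM at baseline in Adcy10-/- cells, and 319.6 ± 25.9 and 244 ± 18.9 FPKM in WT cells (SD, n = 3 each), and rose in both (0.34 and 0.39, adjusted p = 0.0298 and 0.0142, limma). Cd4 averaged 122 ± 0.414 and 162 ± 17.6 FPKM in Adcy10-/- cells, and 125 ± 7.22 and 154 ± 17.2 FPKM in WT cells, and fell in Adcy10-/- cells (-0.40, adjusted p = 0.0261, limma), with -0.30 in WT cells (adjusted p = 0.0804). The part of these cells in the result was not tested.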

How the data were processed

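Polyadenylated RNA of 12 mouse T cell cultures was sequenced, 3 per group. The authors deposited FPKM per gene. The tools named in the submitters' processing notes are STAR 2.4.0f1, SAMtools 0.1.19, Cufflinks and HTSeq, on build mm9, and which of them made the values, and how, is not given in the sources used here. Values of near-identical copies can be uncertain, and FPKM holds no read counts, so absolute depth is unknown and the precision rests on the spread between libraries. Each file listed 24488 entries for 23991 names; entries of 258 repeated names were summed, and no member was repeated.

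Values were tested as log2(FPKM + 1), which understates changes of low genes, in limma 3.58.1 (R 4.3.3) with 4 group means, a variance trend and Benjamini-Hochberg adjustment over 10126 genes, each reaching 1 FPKM in 3 or more libraries. The adjusted p threshold was 0.05 and intervals are 95%. Ratios, motifs and figures used Python 3.11.15 with matplotlib 3.10.9, scipy 1.17.1, pandas 2.3.3 and numpy 2.4.6. The fit and the permutation test were tested on simulated data. Alternatives were a pseudocount of 0.1, no filter, a filter of 5 FPKM, median-ratio scaling, quantile normalization, no variance trend, a replicate block, the 6 libraries compared alone and leaving out each library. Leaving out all libraries numbered 1, and pairing in the ratio test, were added after seeing the data.

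Residuals of libraries of the same number correlated at 0.401 to 0.532 between media in Adcy10-/- cells, 0.294 to 0.536 in WT cells and 0.262 to 0.422 between genotypes with cytokines, so the numbers were taken to pair these libraries. Between genotypes at baseline 1 of 3 pairs lay at 0.0736. Members and gene lists were chosen with earlier results of these data known. One gene of the interferon signalling list is not reported here. Values are given for the 5 interferon-inducible genes, their counterparts, the other activators, members and list genes that passed, those with the smallest p and the extremes of each role class; some of the latter are given by level or range only.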

Additional observations from a re-analysis of the deposited data

How the results depend on the processing

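Recomputed under the alternatives, values kept their direction and side of the threshold, or stayed within 1.5 times a count, in 2307 cases, lost a call in 89, gained one in 22, moved in 30 and changed sign in 26. The proteasome count in WT cells, 5, became 2 with no filter on low values and 1 with only the 6 WT libraries, and ran from 1 to 5 when one library at a time was left out; with no filter more genes are tested, and with 6 libraries fewer samples are. In Adcy10-/- cells it ran from 5 to 6. The genotype and interaction counts of members were 0 under every setting. With the replicate block the counts of members were unchanged at 5 and 6 and no call of a member changed, but calls among all genes grew to 1502 (499 without it) in WT cells, 1086 (432) in Adcy10-/- cells and 3 (0) for the averaged genotype effect; with the block within genotype they were 1574 and 1193. With only the 6 libraries compared, WT calls were 275. Leaving out single libraries gave 164 to 536 calls in WT and 202 to 466 in Adcy10-/- cells, and leaving out those numbered 1 gave 219 in Adcy10-/- cells.

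Exchanging labels within pairs (the replicate block) cannot move the ratio differences, but all 6 calls missed the threshold: -0.38, -0.36, -0.21, -0.21 and -0.38 for cytokines and 0.13 for genotype in Psmb9/Psmb6 had an adjusted p of 0.0521, the lowest that the pairing reached. Each stood at 0.0312, the smallest exact p that 64 arrangements allow. The adjusted value depends on that floor, on the 10 tests and on how many of them reached the floor, here 6. The remaining genotype ratios had exact p of 0.0938 to 0.875 within pairs. None of the differences is called by the paired test, although none of them could have had a smaller p. Values of members that changed sign were near 0. Adcy10-/- minus WT at baseline was -0.0024 for Psmb10 without the libraries numbered 1. Averaged over media it was -0.0062 for Psmb8 without them, and 0.0055 and 0.010 for Psme2 with median-ratio scaling and quantile normalization. The cytokine change of Psmb6 in WT cells was -0.015 with quantile normalization. Leaving out one library at a time gave averaged genotype differences of -0.011 to 0.033 for Psmb8, -0.043 to 0.0061 for Psme1 and -0.056 to 0.024 for Psme2, and cytokine changes of -0.026 to 0.061 for Psmb7 in Adcy10-/- cells and -0.12 to 0.012 for Psma7, -0.048 to 0.055 for Psmb6 and -0.094 to 0.0053 for Psme4 in WT cells. It gave genotype differences in log2 ratio of -0.015 to 0.064 for Psmb10/Psmb7, 0.023 to 0.069 for Psmb8/Psmb5, -0.032 to 0.016 for Psme1/Psme3 and -0.021 to 0.022 for Psme2/Psme3. The causes of these shifts were not tested. Both scalings moved the median of all genes by less than 0.1 on the log2 scale.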
